A study of Mus musculus with 16 samples.

Results

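The quadriceps of mice without a working Klf15 gene (KO) was compared with that of wild-type mice (WT), all given vehicle only, so that the comparison describes which muscle transcripts differ at baseline when Klf15 is lost. The members are the 8 arrays whose titles name quadriceps and vehicle, 4 KO and 4 WT, of 16 arrays in all. Every animal in these groups received a single intraperitoneal injection of vehicle and was sampled at 8 h, and each array holds the RNA of 1 animal per the series' design text. The other 8 arrays, 4 WT and 4 KO, come from animals given 2 mg/kg dexamethasone, a synthetic glucocorticoid, by the same route and sampled at the same time. They entered the fit for the spread between animals and served for a second look at the same genotype difference. The labels give genotype as WT or KLF15 KO and nothing more, and for the making of the allele, the strain, the age and the sex, information was not given in the sources used here.

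Klf15 encodes a Krüppel-like factor, a transcription factor with zinc fingers of the family that binds CACCC and GC-rich boxes in DNA. Its transcript is induced by glucocorticoids and by fasting, and in liver, heart and skeletal muscle it is known for the control of amino acid breakdown, above all of branched-chain amino acids and proline, and of lipid use. Branched-chain amino acids (leucine, isoleucine and valine) are unusual in that muscle, not liver, carries out much of their first step, the transfer of the amino group by Bcat2, before the branched-chain keto acid dehydrogenase removes a carboxyl group and separate pathways break down what is left.

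The regions just upstream of 5 genes that were lower in KO muscle are shown first, because Krüppel-like factors are known to act through such sequences. Prodh and Fgfbp1 had 2 of the largest differences, Aldh6a1 and Lin52 lie side by side and start in opposite directions, and Gstm2 is shown as a window without either of the motifs searched. Each line holds the 250 bases before the start site, 5′ to 3′ on the strand of the gene, from the RefSeq promoter table of build GRCm38.p6. The capitals mark CACCC, or GGGTG where it reads on the other strand, and the GC box GGGCGG, or CCGCCC on the other strand. Matches of the 2 motifs may overlap, though none do in these lines. The windows are Prodh at chr16:18089191-18089440, minus strand; Fgfbp1 at chr5:43981800-43982049, minus strand; Aldh6a1 at chr12:84451025-84451274, minus strand; Lin52 at chr12:84451258-84451507, plus strand; and Gstm2 at chr3:107986421-107986670, minus strand.
Prodh: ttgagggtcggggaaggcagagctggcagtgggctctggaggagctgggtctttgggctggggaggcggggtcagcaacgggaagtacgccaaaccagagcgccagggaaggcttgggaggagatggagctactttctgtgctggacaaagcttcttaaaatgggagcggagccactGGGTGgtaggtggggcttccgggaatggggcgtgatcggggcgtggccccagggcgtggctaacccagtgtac
Fgfbp1: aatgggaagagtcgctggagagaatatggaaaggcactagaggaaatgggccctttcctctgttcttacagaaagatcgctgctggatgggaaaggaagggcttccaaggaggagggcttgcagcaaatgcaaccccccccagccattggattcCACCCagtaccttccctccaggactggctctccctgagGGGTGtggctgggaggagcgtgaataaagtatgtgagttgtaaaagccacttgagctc
Aldh6a1: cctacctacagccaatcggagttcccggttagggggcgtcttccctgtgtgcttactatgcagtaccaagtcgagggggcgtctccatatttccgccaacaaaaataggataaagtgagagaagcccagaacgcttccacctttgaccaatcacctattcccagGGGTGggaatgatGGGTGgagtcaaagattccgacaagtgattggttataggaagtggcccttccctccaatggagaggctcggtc
Lin52: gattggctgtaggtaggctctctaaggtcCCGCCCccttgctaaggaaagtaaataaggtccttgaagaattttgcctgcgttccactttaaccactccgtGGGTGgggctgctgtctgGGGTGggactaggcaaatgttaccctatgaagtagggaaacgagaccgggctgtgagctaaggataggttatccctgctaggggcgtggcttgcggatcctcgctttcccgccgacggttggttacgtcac
Gstm2: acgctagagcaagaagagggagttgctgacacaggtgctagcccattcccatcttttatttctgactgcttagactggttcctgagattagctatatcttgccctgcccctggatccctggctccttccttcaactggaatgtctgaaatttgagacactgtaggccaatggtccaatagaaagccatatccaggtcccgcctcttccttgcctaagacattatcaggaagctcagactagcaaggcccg

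Prodh had 1 match to CACCC, Fgfbp1 2, Aldh6a1 2 and Lin52 2, the last with 1 GC box as well. Aldh6a1 has a second window in the table, at another start site (chr12:84448318-84448567), with 0 matches to either motif. The start sites of Aldh6a1, in the window shown, and Lin52 lie 484 bases apart. Among the genes that were lower in KO, 34 had at least 1 window in the table, and 65.3% of their 49 windows held CACCC on either strand. The share was 56.7% of 15261 windows over all genes tested and 52.0% of 32851 windows over all genes in the table. The GC box was found in 46.9% of the 49 windows against 50.3% of those of all genes tested. These are shares of letter matches in upstream windows, given as a description without a test. Adhfe1, Cth, Rrs1, Pole and Pxmp2, described below, had no window in the table.

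Values are log2 of the scanner's processed intensity minus the 75th percentile of the same array, so a level of 0 is a probe as bright as that percentile, and levels of different probes are not compared. A feature is 1 gene, through its brightest probe, or 1 accession where no symbol was found. On the 8 vehicle arrays the 75th percentile of intensity was 737 to 1101, and 70.3% to 78.4% of spots were well above background, that is, brighter than the local background by the scanner software's own test. Arrays of a group correlated at 0.946 to 0.990 in WT and 0.945 to 0.985 in KO across features. WT replicate 3 and KO replicate 1, which share slide 7, lay apart from the other vehicle arrays on the first principal component (34.2%), and KO replicate 2 on the second (22.7%). Contractile genes of fast fibres, the defining transcripts of quadriceps, were well above background on all 8 arrays for 14 of 14 members. The number of arrays, 4 a group, limits the precision of every value.

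Klf15 itself was measured by 2 probes and was lower on each KO array than on any WT array with both. With the brighter probe (A_52_P64383) the WT animals (replicates 1 to 4) had levels of 3.78, 3.25, 2.80 and 3.36, and the KO animals -1.29, -0.83, -0.47 and -0.12. The means were 3.29 ± 0.40 and -0.68 ± 0.50 (SD, n = 4 each), a 15.7-fold lower level in KO (-3.97 on the log2 scale, SE 0.26, limma adjusted p 2.5e-06). With the other probe (A_51_P299339) the WT levels were 0.18, 0.18, 0.085 and 0.47 and the KO levels -2.66, -3.23, -3.12 and -2.55, an 8.70-fold lower mean. The exact permutation test over the 8 arrays gave p = 0.0286 (two-sided) for either probe, the smallest that 70 permutations allow. Both probes remained well above background on all 4 KO arrays. The position of the probes relative to the altered part of the gene was not given in the sources used here, so the residual signal says nothing of the protein.

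Over the whole array, few transcripts passed, and nearly all of them were lower without Klf15. Of 25196 features, 66 (0.262%) differed between KO and WT at an adjusted p under 0.05 (limma, Benjamini-Hochberg), 60 of them lower (0.238%) and 6 higher (0.0238%). A total of 46 of the lower and 4 of the higher features carried a gene symbol. At an unadjusted p under 0.05 there were 1791 features (7.11%). Of the 60 lower features 34 fell at least 2-fold and 11 at least 4-fold, and their median difference was -1.12 on the log2 scale. Of the 60, 56 were well above background on all 8 arrays, and 2 without a symbol were so on no KO array, with falls of at least 1.98-fold and 4.27-fold. The median over all features was -0.08, and 64.5% of them were below 0. With each array scaled to its median instead, the overall median was 0.028, 0.11 above that with the 75th percentile, and all 66 features kept their sign. In tissue RNA, fewer cells of a type and less RNA per cell cannot be told apart.

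**Figure D1:**
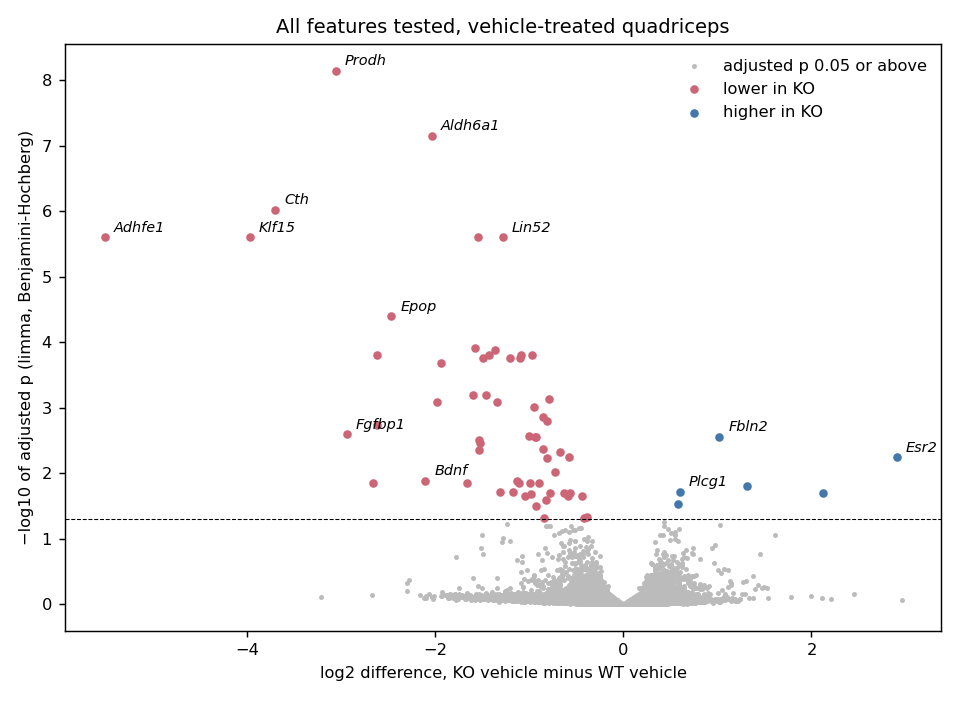
Each point is 1 of 25196 features, with the log2 difference (KO minus WT, vehicle) on the x axis and minus log10 of the limma adjusted p on the y axis, and the dashed line marks an adjusted p of 0.05. The 60 lower features reach -5.51 (Adhfe1), while the 6 higher features lie between 0.58 and 2.91.

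The 4 KO and 4 WT values did not overlap for any of the 66 features, against 4.25% of all features whose KO values all lay lower and 2.11% whose KO values all lay higher. The arrays were spread over slides, of which 3 (numbered 4, 6 and 7) held 1 KO and 1 WT vehicle array each. All 60 lower features were lower in KO on each of those 3 slides, against 24.7% of all features, and all 6 higher features were higher on each, against 13.5%. The features were chosen by their p on these same arrays, which nearly fixes both of these counts, so neither is separate support. With slide as a fixed block, KO replicate 2, alone on its slide, adds nothing to the difference, and 19 features passed, of which 17 were among the 66. Those 17 included Prodh, Aldh6a1, Cth, Lin52, Zfyve21, Klf15, Adhfe1, Epop, Pxmp2, Rrs1, Gstm2, Bckdhb, Epb41l5 and Aldh4a1, and all 66 kept their sign. With slide as a random block (consensus correlation 0.574) 447 features passed, 60.4% of them lower, and all 66 were among them. In the fit without slide 90.9% of the features that passed were lower.

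**Figure D2:**
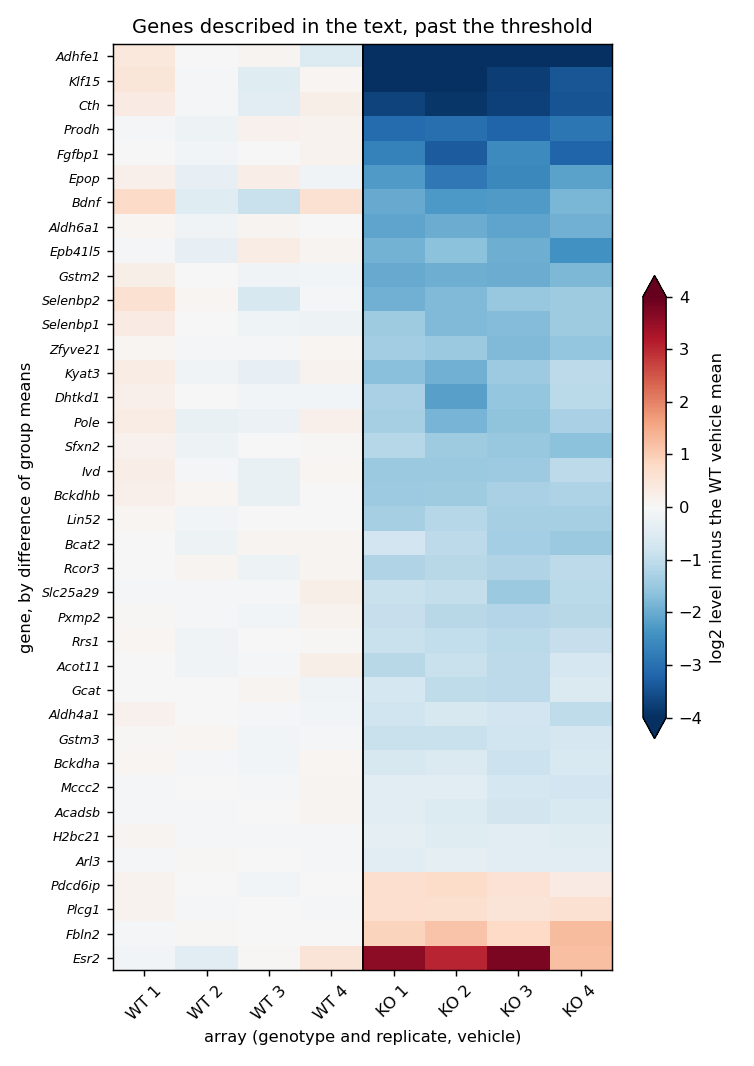
Rows are 38 of the 50 genes with a symbol that passed, those described in the text, ordered from the largest fall (Adhfe1) to the largest rise (Esr2), and columns are the 8 vehicle arrays. Colour gives the log2 level minus the mean of the 4 WT arrays, on a scale that ends at -4 and 4. The 34 lower genes are below the WT mean on all 4 KO arrays and the 4 higher genes above it on all 4.

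Branched-chain amino acid breakdown held more genes past the threshold than any other of the 38 gene lists examined. Of 25 measured genes of the pathway 7 passed as lower and none as higher, against 0.238% and 0.0238% of all features. Of the 25, 22 (88%) were below 0, against 64.5% of all features. The list median was -0.43, against -0.08 over all features. The list's median level, relative to the mean of the 8 arrays, lay between 0.15 and 0.31 on the WT arrays and between -0.24 and -0.14 on the KO arrays, without overlap. Of the 38 lists 4 had array medians that were all lower in KO, and the other 3 were alanine, aspartate and glutamate handling (WT 0.029 to 0.13, KO -0.17 to 0.016), glucose uptake, glycolysis and glycogen (WT 0.031 to 0.11, KO -0.16 to -0.014) and glutathione transferases (WT -0.025 to 0.19, KO -0.23 to -0.051). The list and the genes within it were chosen with earlier results of these data known, so its direction is not independent evidence. In the dexamethasone-treated animals 15 of the 25 passed the threshold as lower in KO, against 0.818% of all features. The list median there was -0.58, against 0.058 over all features.

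The gene of the first step fell, though its call was lost in 6 of the 8 fits that left out 1 vehicle array. Bcat2, the mitochondrial transaminase, had levels of 0.75, 0.57, 0.88 and 0.89 in the WT animals and 0.0045, -0.29, -0.60 and -0.71 in the KO animals. All KO values lay below all WT values, and the mean was 2.25-fold lower (-1.17, SE 0.19, adjusted p 0.019). Its 2 other probes gave -0.59 (adjusted p 0.72) and -1.14 (adjusted p 0.056). Bcat1, the cytosolic form, which is scarce in muscle, gave -0.60 (SE 0.38, adjusted p 0.8), with overlapping groups.

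The keto acid dehydrogenase complex, the committed step, is built from an E1 pair, an E2 core and a shared E3. Its E1 beta subunit gene Bckdhb had levels of 3.46, 3.33, 2.97 and 3.29 in WT and 1.81, 1.85, 1.98 and 2.03 in KO, a 2.54-fold fall (-1.35, SE 0.16, adjusted p 0.00083), and its second probe gave -1.35 as well. The E1 alpha gene Bckdha had levels of 5.77, 5.64, 5.58 and 5.77 in WT and 5.05, 5.10, 4.84 and 5.08 in KO, a 1.59-fold fall (-0.67, SE 0.10, adjusted p 0.0048), and its second probe gave -0.45 (adjusted p 0.35). The 95% intervals were -1.68 to -1.01 for Bckdhb and -0.88 to -0.47 for Bckdha, and the difference between these genes was not tested. For the E2 gene Dbt the value was -1.02 (SE 0.28, adjusted p 0.31), with no overlap between the groups, and it did not pass. Dld, the E3 subunit, which pyruvate dehydrogenase and other complexes share, gave 0.0069 (95% interval -0.23 to 0.24). Bckdk, the kinase that switches the complex off, gave 0.12 (-0.21 to 0.44), and Ppm1k, the phosphatase that switches it on, -0.32 (-0.60 to -0.043, adjusted p 0.6).

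Beyond the complex, 4 genes of the separate branches passed. Aldh6a1, the methylmalonate semialdehyde dehydrogenase of valine breakdown, had levels of 4.99, 4.77, 5.02 and 4.89 in WT and 2.80, 2.92, 2.82 and 2.99 in KO, a 4.10-fold fall with little spread in either group (-2.03, SE 0.092, adjusted p 7.1e-08). Ivd, the isovaleryl-CoA dehydrogenase of leucine breakdown, had levels of 4.51, 4.21, 3.95 and 4.31 in WT and 2.77, 2.77, 2.81 and 3.19 in KO, and fell 2.57-fold (-1.36, SE 0.13, adjusted p 0.00013). KO replicate 4 was the highest of the KO animals for Ivd, still well below the lowest WT value, and the second probe gave -0.97 (adjusted p 0.027). Acadsb, the short branched-chain acyl-CoA dehydrogenase of isoleucine breakdown, gave -0.58 (SE 0.084, adjusted p 0.0057), and Mccc2, a subunit of the methylcrotonyl-CoA carboxylase of leucine breakdown, -0.58 (SE 0.10, adjusted p 0.023). These last 2 genes were named after their values were seen.

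The members that did not pass were spread over all branches. Mccc1, the other subunit of the carboxylase, gave -0.51 (adjusted p 0.075), Echs1 -0.66 (0.12), Hsd17b10 -0.52 (0.14) and Acat1 -0.43 (0.26), each with no overlap between the groups. In contrast, values close to 0 were measured for Auh (-0.027, 95% interval -0.31 to 0.25), Hibch (-0.0069, -0.23 to 0.21) and the mitochondrial carrier gene Slc25a44 (-0.031, -0.47 to 0.41). Valine breakdown held both the largest fall of the list, Aldh6a1, and a gene with an interval centred near 0, Hibch, which acts earlier in the same branch.

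**Figure D3:**
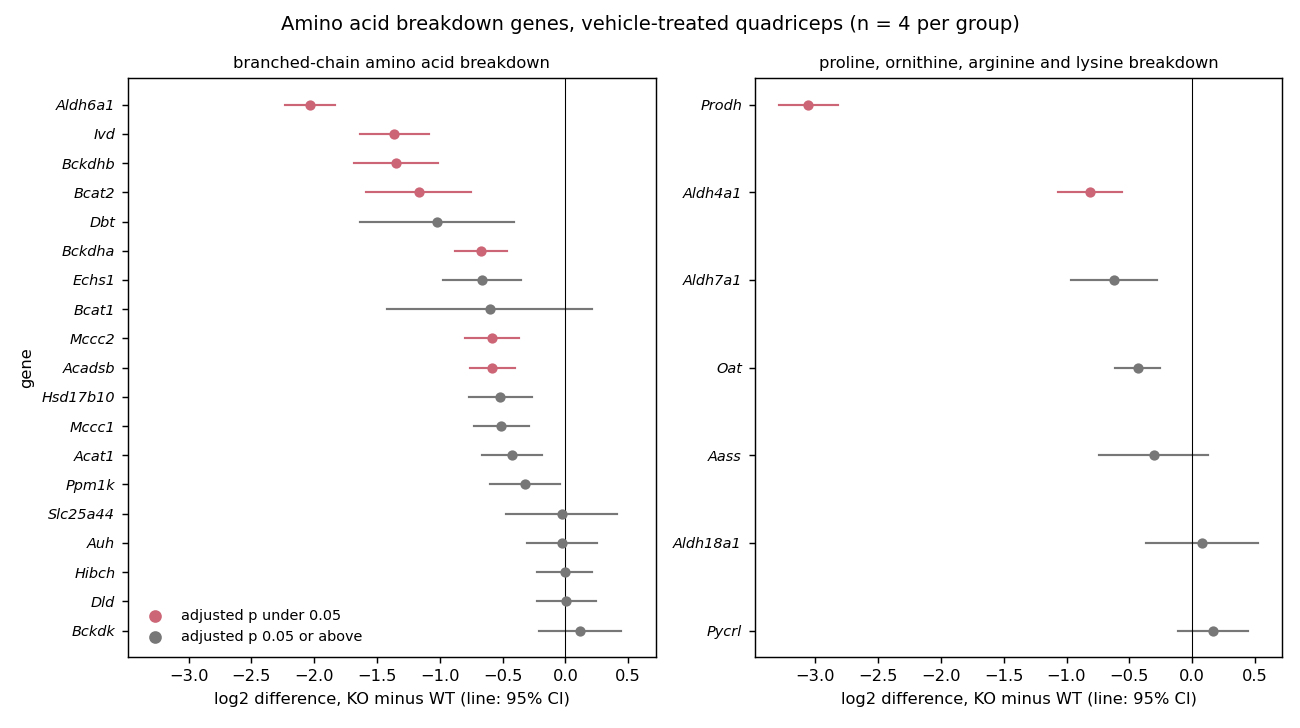
Points give the log2 difference (KO minus WT, vehicle) of the genes of 2 lists that the text describes, 19 of 25 on the left and 7 of 14 on the right, and lines their 95% interval from the limma fit, with coloured points where the adjusted p was under 0.05. On the left 7 branched-chain genes passed, from Aldh6a1 at -2.03 to Acadsb at -0.58, and on the right 2, Prodh at -3.05 and Aldh4a1 at -0.81.

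Proline breakdown takes 2 steps in the mitochondrion, and the genes of both fell. Prodh, the proline dehydrogenase, had levels of 3.13, 3.01, 3.37 and 3.35 in the WT animals and 0.13, 0.19, 0.016 and 0.31 in the KO animals. The groups were far apart, with an 8.31-fold lower mean in KO (-3.05, SE 0.11) and the smallest adjusted p of all features (7.2e-09). Within slides 4, 6 and 7 the difference was -2.70, -3.11 and -3.25. Aldh4a1, which turns the product into glutamate, had levels of 4.41, 4.23, 4.20 and 4.12 in WT and 3.44, 3.58, 3.47 and 3.22 in KO, a 1.76-fold fall (-0.81, SE 0.12, adjusted p 0.006), though its other probe gave -0.59 (adjusted p 0.64). Oat, which joins ornithine to the same intermediate, gave -0.43 (SE 0.082, adjusted p 0.051) and lay just outside the threshold. Of 14 measured genes of proline, ornithine, arginine and lysine breakdown 2 passed as lower and none as higher, against 0.238% and 0.0238% of all features. Below 0 were 11 of the 14 (78.6%), against 64.5% of all features. The list median was -0.33, against -0.08 over all features. Its per-array medians overlapped, at -0.095 to 0.29 in WT and -0.27 to 0.063 in KO. Aldh18a1 and Pycrl, which make proline, gave 0.081 (95% interval -0.37 to 0.53) and 0.17 (-0.11 to 0.45). The lysine enzyme genes Aass and Aldh7a1 gave -0.31 (adjusted p 0.81) and -0.62 (0.23).

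Single genes of other amino acid pathways also fell. Cth, the cystathionine gamma-lyase that makes cysteine, had levels of -0.64, -1.04, -1.41 and -0.72 in WT and -4.65, -4.85, -4.69 and -4.41 in KO, a 13.0-fold fall (-3.70, SE 0.21, adjusted p 9.5e-07). It was the only 1 of 26 measured genes of sulfur, serine and glycine metabolism that passed, against 0.262% of all features. The median of that list was 0.025, against -0.08 over all features. Gnmt, the glycine methyltransferase, gave -1.50 with no overlap but did not pass (SE 0.31, adjusted p 0.088), and Cbs, the enzyme just before Cth, gave -0.27 (SE 0.52). Kyat3, a kynurenine and glutamine transaminase, had levels of 1.68, 1.25, 1.06 and 1.54 in WT and -0.30, -0.54, -0.075 and 0.32 in KO and fell 2.89-fold (adjusted p 0.0045). Dhtkd1, the E1 subunit of the 2-oxoadipate dehydrogenase of lysine and tryptophan breakdown, fell 2.89-fold (adjusted p 0.0031). Its probe was dim, with levels of -4.45 ± 0.14 and -5.98 ± 0.47 (SD, n = 4 each), and was well above background on 2 of the 4 KO arrays. Gcat, of threonine breakdown (-0.84, adjusted p 0.049), and Slc25a29, a mitochondrial carrier of basic amino acids (-1.10, adjusted p 0.014), fell as well and were named after their values were seen.

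No gene passed in the lists of alanine, aspartate and glutamate handling and of amino acid transporters, which hold neither Kyat3 nor Slc25a29. Of 18 measured genes of the first list 11 (61.1%) were below 0, against 64.5% of all features, with a median of -0.10 against -0.08. Gpt, the cytosolic alanine transaminase, gave -0.57 with no overlap (adjusted p 0.078), Gpt2 -0.083 (95% interval -0.45 to 0.28) and Glul, the glutamine synthetase, -0.69 (adjusted p 0.2). Of 21 amino acid transporter genes 11 (52.4%) were below 0, with a median of -0.024.

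The most negative fitted difference was that of Adhfe1, which encodes a mitochondrial transhydrogenase of 4-hydroxybutyrate. Its levels were 0.022, -0.37, -0.28 and -0.95 in WT and -5.74, -5.98, -6.71 and -5.20 in KO, a difference of -5.51 (SE 0.36, adjusted p 2.5e-06). The probe was well above background on 2 of the 4 KO arrays, so the size of this difference, and its rank, depend in part on readings near background. Its other probe gave a smaller and uncertain difference of -2.07 (SE 0.76, adjusted p 0.47), which leaves the size of the fall to 1 probe.

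Lipid genes mostly had small differences. Of 26 measured genes of the carnitine shuttle and fatty acid oxidation 22 (84.6%) were below 0, against 64.5% of all features. The list median was -0.13, against -0.08 over all features. Slc25a20, the carnitine-acylcarnitine carrier, had levels of 2.22, 1.92, 1.65 and 2.19 in WT and 1.59, 1.74, 1.67 and 2.03 in KO. The groups overlapped, and the difference of -0.24 (95% interval -0.57 to 0.091, adjusted p 0.8) did not pass. Acot11, an acyl-CoA thioesterase, fell 1.91-fold (-0.93, SE 0.17, adjusted p 0.032). It was the only 1 of 20 measured genes of fatty acid uptake and activation that passed, against 0.262% of all features. The median of that list was -0.069. Acot1, another thioesterase with near-identical copies, gave -1.78 (SE 0.44, adjusted p 0.19) with no overlap. Cd36 (0.0049, -0.48 to 0.49) and Cpt1b (-0.11, -0.26 to 0.042), which bring fatty acids into the fibre and into the mitochondrion, had values near 0.

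Of the glutathione transferase genes, Gstm2 and Gstm3 of the mu class passed. Gstm2 had levels of 4.64, 4.42, 4.27 and 4.29 in WT and 2.38, 2.46, 2.42 and 2.61 in KO, a 3.83-fold fall (-1.94, SE 0.20, adjusted p 0.00021). Gstm3 fell 1.75-fold (-0.81, SE 0.10, adjusted p 0.0016), and Gstm1 gave -0.78 with no overlap (adjusted p 0.064). Gstm5 (-0.09, 95% interval -0.29 to 0.11) and Gstm4 (0.046, -0.36 to 0.45) were near 0. Of 24 measured genes of the list 2 passed as lower and none as higher, against 0.238% and 0.0238% of all features. Below 0 were 18 of the 24 (75%), against 64.5% of all features. The list median was -0.10, close to the -0.08 over all features. The mu genes are related in sequence and cross-reading between their probes was not checked, so which of them a probe reads is uncertain. The same holds for the selenium-binding protein genes Selenbp1, with levels of 2.99, 2.69, 2.49 and 2.46 in WT and 1.23, 0.89, 0.91 and 1.23 in KO (-1.59, adjusted p 0.00065), and Selenbp2 (-1.66, adjusted p 0.014).

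Secreted factors supplied 2 of the large falls. Fgfbp1, which encodes a carrier that releases fibroblast growth factors from the matrix, had levels of -0.16, -0.24, -0.15 and 0.021 in WT and -2.85, -3.45, -2.67 and -3.32 in KO. The WT animals lay within a narrow range and all KO animals far below it, a 7.68-fold lower mean (-2.94, SE 0.38, adjusted p 0.0025). Bdnf, the brain-derived neurotrophic factor, had levels of -2.43, -3.69, -4.07 and -2.58 in WT and -5.20, -5.48, -5.47 and -5.02 in KO, a 4.30-fold fall (-2.10, SE 0.33, adjusted p 0.013). Its WT values spread widely, with replicates 1 and 4 more than 1 log2 unit above replicates 2 and 3, and the second Bdnf probe gave -1.01 (SE 1.35, adjusted p 0.90). These were the only 2 of 30 measured genes of growth factors and neurotrophins that passed, against 0.262% of all features. The list median was -0.045, against -0.08 over all features. Fgf1 gave 0.47 (adjusted p 0.71), Fgf2 -0.24 (0.84) and Vegfa 0.032 (95% interval -0.25 to 0.31).

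Genes outside metabolism were among the named falls too. Epop, which encodes a partner of elongin and of the polycomb complex PRC2, had levels of -0.13, -0.67, -0.084 and -0.50 in WT and -2.60, -3.21, -2.93 and -2.50 in KO, a 5.52-fold fall (adjusted p 4e-05). Zfyve21, a protein with a lipid-binding FYVE finger, had levels of 1.47, 1.29, 1.33 and 1.46 in WT and 0.0024, -0.10, -0.39 and -0.16 in KO, a 2.92-fold fall (adjusted p 2.5e-06). Epb41l5, a band 4.1 family protein of the cell cortex, fell 3.94-fold with its dim main probe (-1.98, SE 0.23, adjusted p 0.00083), whereas its other probe gave -0.15 (SE 0.32, adjusted p 0.95). Over the features that passed, 20 other probes were available for 19 features. All 20 had the sign of the probe used, 7 passed, and 5 gave less than 0.5 times its difference, those of Adhfe1, Epb41l5, Bdnf, Rcor3 and Pdcd6ip.

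**Figure D4:**
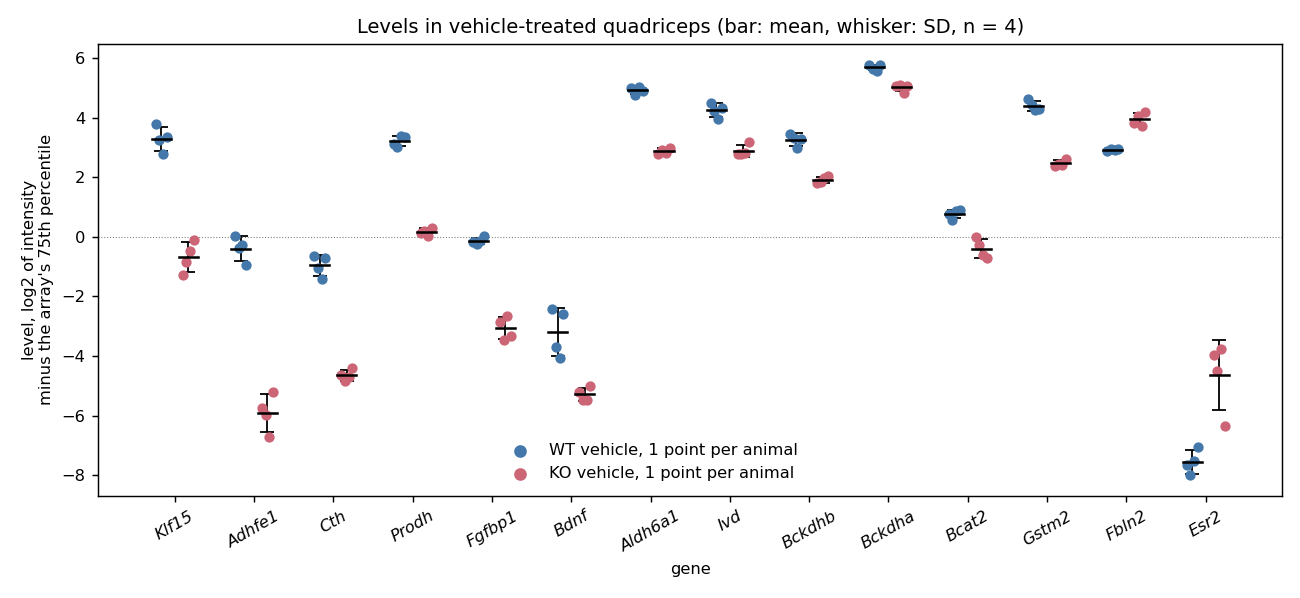
Levels of 14 genes (log2 of intensity minus the array's 75th percentile) in the 4 WT and the 4 KO vehicle-treated animals, 1 point per animal, with the group mean as a bar and the SD as a whisker. WT and KO points are separate for each gene, Klf15 falling from 3.29 ± 0.40 to -0.68 ± 0.50, and the spread is widest for Bdnf in WT and for Esr2 in KO. Levels of different genes are not comparable.

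Several of the genes that fell were direct neighbours. In the RefSeq gene order 5 pairs had no gene between them and both members lower: Rrs1 and Adhfe1, Aldh6a1 and Lin52, Arl3 and Sfxn2, Gstm3 and Gstm2, and Pxmp2 and Pole. Lower features were 0.238% of all features, and the share of such pairs over all neighbouring genes was not worked out. Since the mu genes are related in sequence, Gstm3 and Gstm2 may in part be 1 signal read by both probes, which was not checked. Lin52, a subunit of the MuvB core that represses cell-cycle genes, had levels of 0.65, 0.44, 0.58 and 0.56 in WT and -0.77, -0.58, -0.79 and -0.77 in KO, a 2.43-fold fall (-1.28, SE 0.081, adjusted p 2.5e-06), beside the 4.10-fold fall of Aldh6a1 across the span whose sequences are given above. Sfxn2, a mitochondrial sideroflexin, had levels of -0.46, -0.86, -0.65 and -0.61 in WT and -1.79, -2.07, -2.17 and -2.28 in KO (2.69-fold, adjusted p 0.00016), and its second probe gave -1.42. Arl3, a small GTPase whose start site lies 183 bases from that of Sfxn2, had levels of 3.22, 3.31, 3.29 and 3.23 in WT and 2.83, 2.89, 2.85 and 2.81 in KO. Its fall of 1.34-fold (-0.42, SE 0.079, adjusted p 0.049) was among the smallest that passed. Pole, the catalytic subunit of DNA polymerase epsilon, fell 2.88-fold (adjusted p 0.0034) and its neighbour Pxmp2, a peroxisomal membrane protein, 2.12-fold (0.00016). Rrs1, a ribosome assembly factor next to Adhfe1, fell 1.96-fold (adjusted p 0.00016). Arl3, Pxmp2 and Rrs1 were named after their values were seen.

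Only 6 features rose. Fbln2, which encodes the matrix protein fibulin-2, had levels of 2.88, 2.97, 2.93 and 2.95 in WT and 3.82, 4.07, 3.73 and 4.19 in KO, a 2.03-fold rise (1.02, SE 0.14, adjusted p 0.0028), with no overlap and 1.22, 0.85 and 0.89 within slides 4, 6 and 7. Fbln2 lies on the same chromosome as Klf15, 6 genes away in the RefSeq order. Of the 36 other genes measured within 25 places of Klf15 on either side it was the only one that passed. The adjacent gene Aldh1l1, named after its values were seen, gave -0.76 (adjusted p 0.49) under vehicle and -1.30 (adjusted p 0.023) after dexamethasone.

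Esr2, the gene of oestrogen receptor beta, was not well above background on any WT array and was on all 4 KO arrays. Its levels were -7.65, -8.00, -7.51 and -7.05 in WT and -3.97, -4.50, -3.78 and -6.34 in KO. On the scanner's processed intensity the rise was at least 3.43-fold. This bound sets the KO mean against a floor for each WT array. The floor is the higher of the probe's own signal and the dimmest signal called well above background. KO replicate 4 lay well below the other KO animals, and the difference of 2.91 (SE 0.42, adjusted p 0.0057) turned to -0.31 with normexp background correction. Plcg1, a phospholipase C of growth factor signalling, rose 1.52-fold (adjusted p 0.019) and also turned, to -0.23, with that correction. Pdcd6ip, an adaptor of the ESCRT machinery, rose 1.49-fold (adjusted p 0.03), while its other probe gave 0.16 (adjusted p 0.84). Of the 2 higher features without a symbol, 1 was at least 3.02-fold higher on the processed intensity. The other gave 1.31 with 1 of 4 WT arrays well above background, so its size rests on readings near background, and both turned negative with normexp.

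Most other gene lists held no gene that passed, and the medians of those given here lay between -0.21 and 0.099, against -0.08 over all features. Of 19 Krüppel-like and Sp factor genes other than Klf15 none passed, with a median of -0.11. Klf12 gave -0.62 with no overlap (adjusted p 0.073), Klf10 -1.08 (SE 0.36, adjusted p 0.47), Klf5 0.53 (0.3) and Klf9 0.08 (95% interval -0.26 to 0.42). The median was -0.12 over 35 genes of glucose uptake, glycolysis and glycogen, of which Pfkfb1 (-0.56, adjusted p 0.064) and Fbp2 (-0.76, 0.19) had some of the lowest values, and -0.023 over 30 genes of the citric acid cycle and respiratory chain. It was 0.099 over 16 PPAR, PGC-1 and oestrogen-related regulators, -0.21 over 23 glucocorticoid receptor targets and -0.074 over 24 atrophy, ubiquitin ligase and autophagy genes. Of these 24 genes 18 were below 0, as were 64.5% of all features.

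Markers of fibre types and of other cells in the tissue did not pass for any gene, though some lists leaned 1 way. Over all features 64.5% were below 0, with a median of -0.08. The slow-fibre contractile list had a median difference of 0.60 with 9 of 11 genes above 0 and none past the threshold. Its per-array median ran from -0.93 to 0.94 in WT and from -0.50 to 1.25 in KO, so the groups overlapped, and Myh7, the slow myosin heavy chain, gave 2.20 (SE 1.83, adjusted p 0.85). The 14 macrophage genes were all below 0 (median -0.28, arrays -0.18 to 0.47 in WT and -0.37 to 0.22 in KO), and the 20 interferon response genes all above 0 (median 0.16, arrays -0.16 to -0.061 in WT and -0.17 to 0.38 in KO). Of 14 endothelial genes 13 were above 0 (median 0.17), with per-array medians of -0.31 to 0.0091 in WT and 0.0034 to 0.28 in KO, which overlap, and Pecam1 gave 0.51 (adjusted p 0.083). Of 11 smooth muscle and pericyte genes 10 were above 0 (median 0.19), with per-array medians of -0.20 to 0.020 in WT and 0.037 to 0.17 in KO, the only list whose array medians were all higher in KO. Adipocyte genes were above 0 for 9 of 10 and nerve and Schwann cell genes for 8 of 9, with overlapping arrays in both. The 13 lymphocyte genes had a per-array median of -1.20 in KO replicate 2, against 0.27 to 0.37 in the other KO animals. Their part in the differences above was not tested.

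The same genotype difference in the dexamethasone-treated animals, which share no array with the vehicle groups but share slides with them, gave a second set of values for each gene. In that comparison 463 features (1.84%) passed, 206 (0.818%) lower in KO and 257 (1.02%) higher. Of the 60 features lower under vehicle 55 passed as lower there, which is 91.7% of the 60 and 26.7% of the 206, and 60 of 60 were below 0. Both contrasts came from the same fit and shared 1 estimate of spread per feature, so passing in both is not a separate test. The groups did not overlap for 58 of the 60, against 3.68% of all features whose KO values all lay lower. Of the 6 higher features 1 passed, Fbln2 (1.15, SE 0.14, adjusted p 0.00041).

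For most of these features the difference was larger after dexamethasone. The median over the 60 features was -1.46 against -1.12 under vehicle, and 49 of the 60 had the lower value after dexamethasone, as had 20.1% of the 16250 features below 0 under vehicle. Cth gave -5.57 after dexamethasone against -3.70 under vehicle, an interaction of -1.87 (SE 0.30, adjusted p 0.099). Bcat2 gave -2.19 against -1.17 (interaction -1.03, SE 0.28, adjusted p 0.22). Klf15 itself gave -3.79 against -3.97 (interaction 0.18, SE 0.37). Prodh gave -3.40 against -3.05, and Aldh6a1 -2.23 against -2.03. No feature passed the interaction test (limma, smallest adjusted p 0.0922), and 2893 features (11.5%) had an unadjusted interaction p under 0.05, among them 24 of the 66. With slide as a random block 310 features passed the interaction test, so its count depends on how the shared slides are treated. Esr2 was well above background on no array of either genotype after dexamethasone, so no difference is given for it there.

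**Figure D5:**
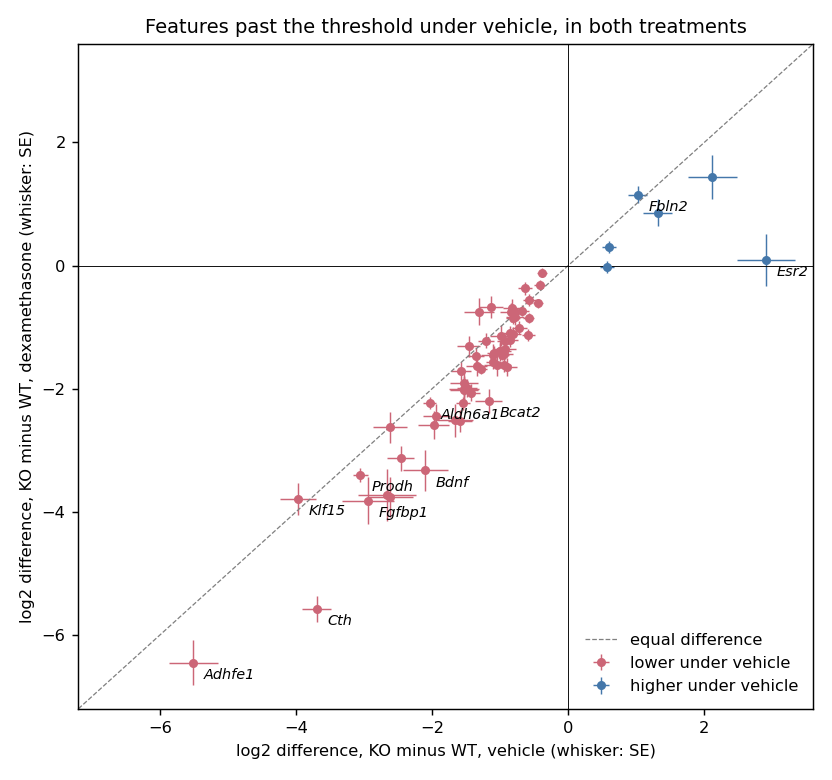
Each point is 1 of the 66 features, with the log2 difference KO minus WT under vehicle on the x axis and after dexamethasone on the y axis, whiskers giving the SE of each and the dashed line marking equal differences. Of the 60 lower features 49 lie below the dashed line. Esr2 is drawn at its readings, which were not well above background in WT vehicle and in both dexamethasone groups.

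With each vehicle array left out in turn, 41 of the 66 features passed in all 8 fits, and all 66 kept their sign. Bcat2 ranged from -1.30 to -1.06 but lost its call without WT replicates 1, 3 or 4 or KO replicates 2, 3 or 4 (adjusted p up to 0.088). Bdnf ranged from -2.40 to -1.85 and lost its call without WT replicate 4 or KO replicates 2 or 3 (up to 0.055), and Selenbp2 without WT replicates 2 or 4 or KO replicates 1 or 2 (up to 0.064). Plcg1 (up to 0.088), Pdcd6ip (up to 0.13), Mccc2 (up to 0.11) and Acot11 (up to 0.14) each lost theirs in 6 or 7 of the 8 fits, and Arl3 (up to 0.19) in all 8. Without the other 8 arrays in the fit 30 features passed.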

How the data were processed

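Per the labels' protocols, amplified cDNA of each animal was labelled with Cy3. Per the file headers, the deposited spot intensity came from Feature Extraction, background-subtracted and detrended within each array by the authors. A series-wide deposited log2 table, used as an alternative, ranks probes as the scanner's median signal does; how it was normalized was not given in the sources used here.

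Control and outlier spots were left out, spots of a probe averaged, and each array's 75th percentile subtracted on the log2 scale. Probes well above background on 4 or more of 16 arrays were kept, the brightest per gene. Of 41174 probes 24844 were given a symbol through RefSeq accessions (GRCm38.p6, names and gene order). Limma 3.58.1 in R 4.3.3 fitted 4 group means to 16 arrays, with eBayes and two-sided p-values adjusted over 25196 features (Benjamini-Hochberg, 0.05). Simulated arrays were drawn with noise independent between arrays, unlike the real ones, which share slides, so their shares may not carry over. With 200 changed features, the fit recovered 7% at a log2 change of 0.5, 53.5% at 1 and 72% at 2. Unchanged features that passed numbered 1, 9 and 10. As changed features were missed, a feature that did not pass may still differ. Replicate numbers were not treated as pairs in the fit. Of 708 genes in 38 lists 662 were measured. Named were the 20 largest falls and rises with a symbol and without overlap, up to 4 members past the threshold per list, and Klf15, Bcat2, Prodh, Slc25a20, Cth, Fgfbp1 and Bdnf; list members that did not pass were named after their values were seen. Some results are not reported here. Members and lists were chosen with earlier results of these data known.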

Additional observations from a re-analysis of the deposited data

Results flagged for a closer look

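For the 66 features that passed and Slc25a20, 134 groups of 4 animals were examined for a sample set apart from the other 3 (Dixon's test), and 7 had one, where chance gives about 1 in 20. In KO animals, Lin52 in replicate 2 was high at -0.58 (others -0.79 to -0.77), Ivd in replicate 4 was high at 3.19 (others 2.77 to 2.81), and the unnamed feature AK009502 in replicate 1 was low at -3.95 (others -3.79 to -3.78). In WT animals, Slc25a29 in replicate 4 was high at 0.93 (others 0.61 to 0.65) and the histone gene H2bc21 in replicate 1 was high at 1.16 (others 0.99 to 1.00). Among features without a symbol, X62895 in WT replicate 1 was low at -3.25 (others -3.14 to -3.11) and AK082176 in WT replicate 4 at -4.60 (others -4.33 to -4.32). None of these values crossed into the other genotype's range.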

How the results depend on the processing

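The count of 66 features (60 lower, 6 higher) was 41 at an adjusted p under 0.01, 38 (34 lower) with median scaling, 17 (17 lower, 0 higher) with normexp, 30 (28 lower, 2 higher) with the 8 vehicle arrays alone, 19 (18 lower, 1 higher) with slide as a fixed block, 447 (270 lower, 177 higher) with slide as a random block and 43 (1 higher) without slide 7. Quantile normalization gave 69, with 11 higher. The deposited values gave 58, 50 of them among the 66. Leaving out 1 vehicle array at a time gave 44 to 64 features, 42 to 53 lower and 2 to 11 higher. The normexp fit used the spot median, since the planned mean signal was not among the columns. That fit and the fit without slide 7 were chosen after seeing the data. All 66 features kept their sign under the settings named here except 4 with normexp: Esr2 (-0.31), Plcg1 (-0.23), AK046698 (-0.53) and NM_183151 (-0.37). The branched-chain list median was -0.43, against -0.08 over all features. It was -0.32 against 0.028 with median scaling and -0.35 against -0.013 with quantile normalization. The deposited values gave -0.29 against -0.0098, and fits with 1 array left out gave list medians of -0.49 to -0.38. With normexp the list median was -0.26, not below the median of all features, which that correction shifted to -0.29. The cause of the lower counts was not tested. Under dexamethasone the 463 features became 205 with median scaling, 49 with normexp, 45 and 951 with slide as a fixed or random block, and 289 with the replicate block. The interaction count of 0 was 1 with the deposited values and 310 with slide as a random block. Deviations from the group means correlated at -0.66, 0.034, -0.62 and 0.24 between WT and KO vehicle arrays of the same replicate number. WT replicate 3 and KO replicate 1, which share slide 7, correlated at 0.77. As slides enter these values, they cannot decide whether replicate numbers pair animals. Under vehicle the replicate block gave 56 features, all among the 66. Signal over background limits the dim probes: 56 of the 60 lower features were well above background on all 8 arrays.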
